A study of Rattus norvegicus with 15 samples.

Results

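The step from cervical loop to secretory stage of the enamel organ was examined in rat lower (mandibular) incisors, on 10 of the 15 arrays of a long non-coding RNA study. The members are the 5 arrays labelled as cervical loop and the 5 labelled as secretory-stage enamel organ; the other 5 arrays hold the maturation stage. Wistar Hannover rats aged 4 weeks were the source, with no treatment or mutation named, and each of the 15 total RNA samples was hybridized to its own one-colour Cy3 array. Per the series design the tissue came from 5 rats; no label read here ties an array to a rat. Stages follow the tissue label. The titles of 8 of the 15 arrays name another stage: the arrays used here as secretory replicates 2 to 5 carry a maturation title.

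The rat incisor grows throughout life, so its enamel organ holds every stage of enamel formation in a row from base to tip. The cervical loop at the base keeps the epithelial progenitors, whose daughters stop dividing, lengthen and polarize into ameloblasts. Secretory ameloblasts then release enamel matrix proteins such as amelogenin, ameloblastin and enamelin beside a supporting cell layer, the stratum intermedium. This step combines exit from the cell cycle, new cell contacts and a large secretory apparatus.

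The array carried 38321 probes besides control spots. Of these, 37277 had an identifier of the array maker alone, 962 stood for the plus and minus strands of 481 ultraconserved elements (DNA stretches without a mismatch between the human, mouse and rat genomes), and 39 could be matched through their accession to 38 named RefSeq genes. None of the genes listed for enamel matrix, maturation ameloblasts, cervical loop progenitors, the cell cycle, or epithelial and 7 other cell types was among the named genes. The stage labels could therefore not be checked against defining markers, and a change in the mix of cells and a change in RNA per cell cannot be told apart in this bulk tissue. Testing covered 28863 features, and 25002 of them exceeded background clearly on each of the 10 arrays (called measured below). The 2 stages were scanned on different days, and an effect of the day cannot be told apart from one of stage. Levels below are log2 signals relative to the 75th percentile of the same array, which is set to 0; a difference of 1 is a 2-fold change.

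One cervical loop array lay nearer to the secretory stage than the others by correlation over all features and by the features that rose. Replicate 3 correlated with the secretory arrays at a median of 0.954 across features, against 0.922 to 0.932 for the other 4 cervical loop arrays, and with its own stage at 0.979. Among the 150 features at least 16-fold higher in the secretory stage, replicate 3 was the highest cervical loop array for 141 (94.0%). Among the 2540 features at least 2-fold higher and complete on the cervical loop arrays it was highest for 1232 (48.5%), and the other replicates for 218 to 420. The falling features were less one-sided: replicate 3 was the lowest cervical loop array for 34.7% of 4415 features at least 2-fold lower (replicate 2 for 24.5%), but for 12 of the 52 at least 16-fold lower, where replicate 2 was lowest for 24. Its part in the differences was not tested; values without it are given where it moved a result.

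The first question was which named genes differ between matrix-secreting and progenitor tissue. Cdh2, which encodes the cell adhesion molecule N-cadherin, and Pld1, which encodes phospholipase D1, rose most, 4.03-fold and 3.06-fold. Ndfip1 and Ndfip2, which encode membrane adaptors of Nedd4-family ubiquitin ligases, rose 2.39-fold and 2.02-fold. Among genes measured on all 10 arrays, the decreases of Fgf2, a fibroblast growth factor (3.39-fold lower), Actb, beta-actin (2.29-fold lower), and Dlg4, the gene of the postsynaptic scaffold PSD-95 (2.20-fold lower), ranked first on the signal used here. Normexp correction, another way to subtract background, also adds an offset of 50 to each spot, which draws log2 differences of dim probes toward 0. With it Actb fell most (-1.23), followed by Slc28a2 (-1.04), a nucleoside transporter gene, while Fgf2 (-0.40) and Dlg4 (-0.27) differed less. Of the 37 RefSeq genes tested, 28 (75.7%) passed the threshold, 9 upward and 19 downward (limma, Benjamini-Hochberg adjusted p under 0.05). Over all features 58.1% passed, 21.4% upward and 36.7% downward. By measured signal, at least 2-fold changes were found in 4 genes upward and 7 downward, against 8.86% and 15.4% of all features. Among the 7, Map2 and Cyp2e1 were measured on no secretory array, and the bound of Cyp2e1, given below, stays under 2-fold. Of the 33 genes measured on all 10 arrays, 9 rose, 15 fell and 9 did not pass. A feature measured throughout in 1 stage alone was let into the test by the stage where it is high, so such features are given by their bound, with no p. The median difference of the genes was -0.44, against -0.19 for all features.

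**Figure D1:**
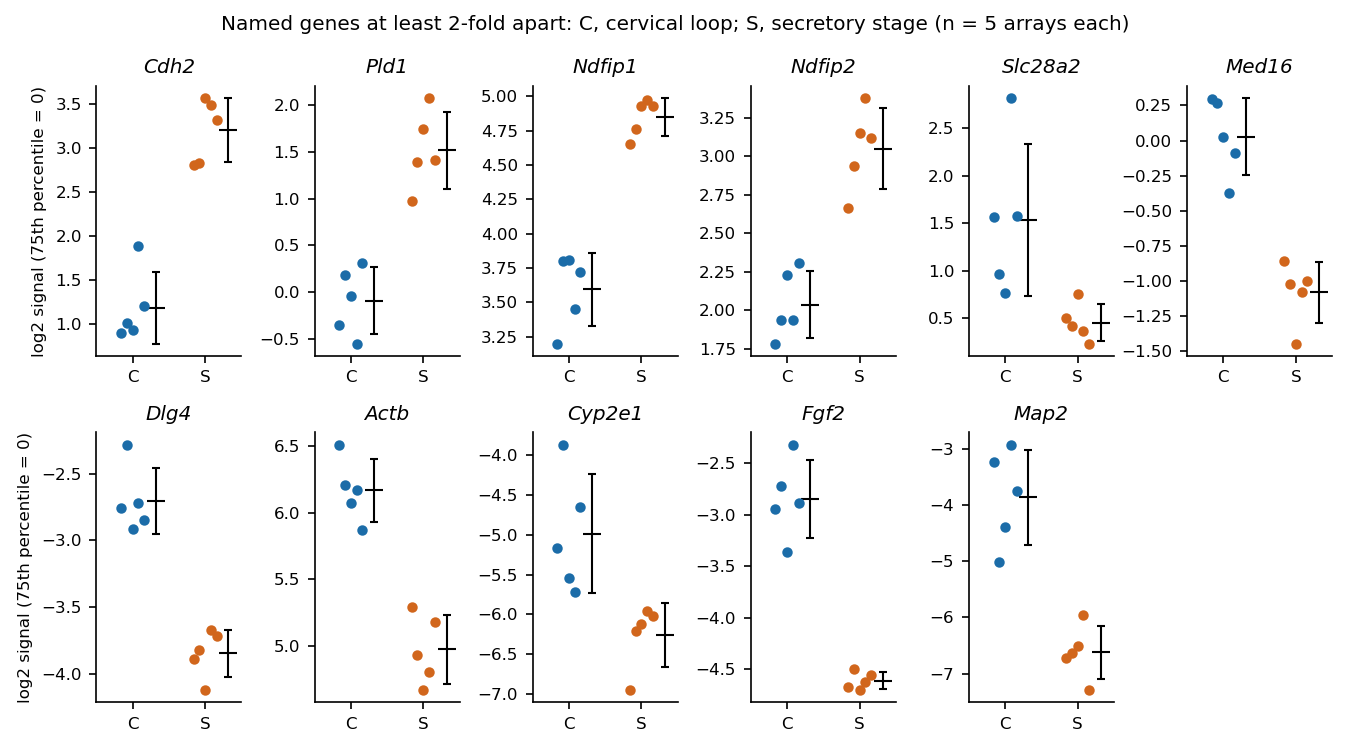
Log2 signal of each array (75th percentile of the array = 0) for the 11 named genes at least 2-fold apart by measured signal; points are arrays in replicate order, the mark beside them is the mean and SD of 5 arrays, and each panel has its own scale. The 5 cervical loop (C) and 5 secretory (S) arrays do not overlap in any of the panels, and for Slc28a2 the lowest C array and the highest S array nearly meet. Map2 and Cyp2e1 were well above background on no S array.

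Among the genes of cell adhesion and the cytoskeleton, 1 of 5 rose and 4 fell. Cdh2 read 0.90, 1.01, 0.93, 1.89 and 1.21 in cervical loop replicates 1 to 5 and 2.80, 2.83, 3.56, 3.49 and 3.32 in secretory replicates 1 to 5. The lowest secretory array lay above the highest cervical loop array, which was replicate 4. The mean went from 1.19 ± 0.41 to 3.20 ± 0.36 (SD, n = 5 each), a difference of 2.01 (SE 0.19, limma adjusted p = 5.27e-07).

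Actb, a structural protein gene often used as a reference, read 6.51, 6.21, 6.07, 6.17 and 5.87 in the cervical loop and 5.29, 4.93, 4.67, 4.80 and 5.18 in the secretory stage. The stages did not overlap, and Actb fell by 1.19 (SE 0.15, adjusted p = 7.63e-06). Map2, whose product binds microtubules in neuronal dendrites, read -3.23, -5.02, -4.38, -2.92 and -3.74 in the cervical loop and -6.72, -6.64, -6.51, -5.96 and -7.30 in the secretory stage. No secretory array was well above background for it, so that the fall is a bound: Map2 was at least 3.63-fold lower (measured means -3.86 ± 0.85 and -6.62 ± 0.48, SD, n = 5 each), and with normexp background correction its difference was -0.24, short of the threshold. Dlg4, best known from synapses, read -2.76, -2.28, -2.92, -2.72 and -2.85 in the cervical loop and -3.89, -3.82, -4.12, -3.67 and -3.72 in the secretory stage. Every secretory array lay below every cervical loop array (difference -1.14, SE 0.13, adjusted p = 2.94e-06; -0.27 with normexp correction). Odf2l, a relative of a centriole protein gene, fell by 0.77 (adjusted p = 0.00263), with cervical loop replicates 1 and 4 highest at 0.44 and 0.78.

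None of the 6 tested genes for ligands, receptors and signalling rose, and 3 fell. Fgf2 read -2.95, -2.72, -3.36, -2.32 and -2.89 in cervical loop replicates 1 to 5 and -4.67, -4.50, -4.70, -4.62 and -4.56 in secretory replicates 1 to 5. The secretory arrays lay close together (SD 0.08) and below every cervical loop array (SD 0.38). Fgf2 fell by 1.76 (SE 0.16, adjusted p = 2.65e-07), and its difference was -0.40 with normexp correction. Gdnf, a neurotrophic factor, went from -5.12 ± 0.63 to -5.95 ± 0.55 and was well above background on 2 secretory arrays. Its stages overlapped, its adjusted p of 0.0486 was close to the threshold, and the call ended under 11 of the 20 alternatives, among them without cervical loop replicate 1, 2 or 3 or secretory replicate 3, 4 or 5, and the sign reversed under 2 more (0.20 with normexp correction).

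Ppp2r2b, a regulatory subunit of protein phosphatase 2A, fell by 0.76 without overlap (adjusted p = 0.000437; -0.19 and no call with normexp correction). P2rx2, an ATP-gated channel, Ptk2b, a calcium-responsive tyrosine kinase, and Pdcd10, a component of a kinase and phosphatase complex, differed by -0.47 (SE 0.28), -0.26 (SE 0.28) and -0.11 (SE 0.14) and did not pass the threshold. Lhcgr, the luteinizing hormone receptor, was well above background on none of the 10 arrays and was not tested.

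Of the 3 enzymes that act on lipids and phosphate esters, Pld1 rose and 2 fell. Pld1, which makes phosphatidic acid and acts in membrane traffic, read -0.36, 0.18, -0.04, -0.55 and 0.31 in the cervical loop and 0.98, 1.39, 1.74, 2.07 and 1.41 in the secretory stage. The lowest secretory array, replicate 1, lay above the highest cervical loop array, replicate 5 (difference 1.61, SE 0.19, adjusted p = 4.98e-06). Enpp1, which makes the mineralization inhibitor pyrophosphate, read 2.11, 2.31, 1.94, 2.07 and 2.43 in the cervical loop and 1.46, 1.45, 1.25, 1.27 and 0.95 in the secretory stage. It fell by 0.90 without overlap (SE 0.15, adjusted p = 9.1e-05), and its maturation mean was 4.98. Secretory replicate 1, whose title and tissue label agree, read 1.46, and replicates 2 to 5, with maturation titles, read 0.95 to 1.45. Napepld, which makes N-acylethanolamines, fell by 0.40 (adjusted p = 0.0183), a call that ended with median scaling (-0.18), quantile normalization (-0.01) and stages from the titles (-0.02); with normexp correction its sign was opposite (0.19).

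Genes of the ubiquitin system and of protein folding and turnover rose in 4 of 6 cases, where 21.4% of all features rose; the groups of genes are small and were not tested against each other. Ndfip1 read 3.20, 3.80, 3.81, 3.45 and 3.72 in the cervical loop and 4.66, 4.76, 4.93, 4.98 and 4.93 in the secretory stage. Ndfip2 read 1.78, 1.93, 2.23, 1.93 and 2.30 in the cervical loop and 2.67, 2.94, 3.15, 3.38 and 3.12 in the secretory stage. Both were higher on every secretory array than on any cervical loop array (differences 1.26 and 1.01, SE 0.13 and 0.14, adjusted p = 1.04e-06 and 2.14e-05). Both passed the threshold in the same direction under all 20 alternatives.

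Trim2, a ubiquitin ligase, rose by 0.52 (adjusted p = 0.025), and Mex3c, an RNA-binding ubiquitin ligase, by 0.41 (adjusted p = 0.0195). In both the stages overlapped. The call of Trim2 ended without cervical loop replicate 1 or 3, without secretory replicate 3 or 4 and with the 10 arrays alone in the fit (0.41 to 0.68 over all arrays left out), and that of Mex3c without cervical loop replicate 4 or secretory replicate 3 or 5 (0.33 to 0.50). Hsp90ab1, the chaperone HSP90 beta, fell by 0.65 (adjusted p = 0.00103). Gusb, a lysosomal enzyme, differed by 0.25 (SE 0.25) and did not pass the threshold; its cervical loop arrays ranged from 1.82 to 3.57 and its secretory arrays from 2.74 to 3.15.

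The promoter windows of 3 of the 4 genes that rose at least 2-fold, Pld1, Ndfip1 and Ndfip2 (that of Cdh2 was not used here), and of the growth factor gene Fgf2, which fell, are shown to set the sequences beside the direction of change. Each is the 250 bases before the RefSeq start of the gene in GRCr8, 5′ to 3′ on the gene's strand. They lie at chr2:112821926-112822175 (+ strand), chr18:30516775-30517024 (+ strand), chr15:88446682-88446931 (+ strand) and chr2:122164204-122164453 (+ strand).
Pld1: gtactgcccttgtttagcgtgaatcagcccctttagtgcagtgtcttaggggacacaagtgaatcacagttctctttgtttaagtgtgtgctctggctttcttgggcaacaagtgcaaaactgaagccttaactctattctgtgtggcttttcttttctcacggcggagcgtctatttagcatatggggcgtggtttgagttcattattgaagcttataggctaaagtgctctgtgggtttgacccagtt
Ndfip1: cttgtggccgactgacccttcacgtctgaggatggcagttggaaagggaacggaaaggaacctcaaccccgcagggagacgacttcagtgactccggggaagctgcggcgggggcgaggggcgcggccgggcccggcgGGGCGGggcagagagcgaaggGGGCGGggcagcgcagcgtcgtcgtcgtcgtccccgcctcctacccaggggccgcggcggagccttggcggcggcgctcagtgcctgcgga
Ndfip2: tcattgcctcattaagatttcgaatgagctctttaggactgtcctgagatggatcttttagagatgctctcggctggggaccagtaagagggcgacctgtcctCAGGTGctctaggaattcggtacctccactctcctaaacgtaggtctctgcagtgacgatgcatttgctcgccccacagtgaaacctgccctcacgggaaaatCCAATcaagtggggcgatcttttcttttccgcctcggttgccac
Fgf2: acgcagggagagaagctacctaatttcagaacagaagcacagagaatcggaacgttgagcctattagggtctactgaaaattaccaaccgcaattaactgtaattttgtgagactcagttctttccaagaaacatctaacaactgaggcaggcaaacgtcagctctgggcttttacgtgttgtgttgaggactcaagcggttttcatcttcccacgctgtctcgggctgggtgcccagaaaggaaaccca
Capitals mark matches on either strand to any of 4 motifs, and no matches overlapped. The GC box, searched with the letters GGGCGG, occurred 2 times in Ndfip1 and in 30.5% of 33469 rat promoter windows of this length. The CCAAT box, searched by these 5 letters, occurred 1 time in Ndfip2 and in 34.0% of windows. The E-box that Snail and Zeb factors bind, searched as CAGGTG, occurred 1 time in Ndfip2 and in 15.9% of windows. The TATA box, searched with the letters TATAAA, was not found in these 4 windows and occurred in 12.9% of all. Neither Pld1 nor Fgf2 had a match. The share of G and C was 72.8% in Ndfip1, 51.6% in Ndfip2, 45.2% in Pld1 and 46.8% in Fgf2.

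Metabolic genes went both ways, with 2 of 8 higher, 4 lower and 2 not past the threshold. Sdha, a subunit of mitochondrial complex II, rose by 0.66 (SE 0.17, adjusted p = 0.00379), and Nat1, an arylamine acetyltransferase, by 0.54 (SE 0.14, adjusted p = 0.00385). The stages overlapped for both, since cervical loop replicate 5 of Sdha, at 4.55, and replicate 2 of Nat1, at -0.05, reached into the secretory range. The glycolytic genes fell without overlap: Ldha, which interconverts pyruvate and lactate, by 0.89 (SE 0.11, adjusted p = 6.5e-06), and Pgk1, phosphoglycerate kinase, by 0.50 (SE 0.12, adjusted p = 0.00254). Ldha read 6.53, 6.48, 6.34, 6.72 and 6.69 in the cervical loop and 5.69, 5.66, 5.78, 5.67 and 5.51 in the secretory stage, and its second probe had a mean difference of -1.34. The call of Pgk1 ended with median scaling (-0.27).

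Slc28a2, a concentrative nucleoside transporter, read 1.56, 0.97, 0.76, 2.82 and 1.57 in the cervical loop and 0.50, 0.41, 0.75, 0.36 and 0.23 in the secretory stage. Cervical loop replicate 4 stood highest, and cervical loop replicate 3 lay just above the highest secretory array. The difference was -1.09 (SE 0.28, adjusted p = 0.00367). Cyp2e1, a cytochrome P450 gene, was measured in every cervical loop sample but in no secretory one, and was at least 1.66-fold lower (measured means -4.99 ± 0.75 and -6.26 ± 0.40, SD, n = 5 each). Its call ended with quantile normalization (-0.70), and with normexp correction the difference was 0.14. Hprt1, of purine salvage, and Pdk3, which inhibits pyruvate dehydrogenase, differed by -0.23 (SE 0.12) and -0.13 (SE 0.15) and did not pass the threshold, which Hprt1 did with quantile normalization (-0.32).

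Among 7 genes of transcription, RNA handling and translation, 4 fell and 1 rose. Med16, a Mediator subunit, read 0.29, 0.27, 0.03, -0.37 and -0.09 in the cervical loop and -1.44 to -0.86 in the secretory stage. Magoh, a core protein of the exon junction complex, read 2.57, 2.45, 2.31, 2.58 and 2.16 in the cervical loop and 1.56, 1.39, 1.29, 1.55 and 1.60 in the secretory stage. Neither gene's stages overlapped (differences -1.11 and -0.94, SE 0.15 and 0.12, adjusted p = 1.32e-05 and 6.4e-06). Eif4b, a translation initiation factor, fell by 0.45 (adjusted p = 0.0165) and Cse1l, the export receptor of importin alpha, by 0.44 (adjusted p = 0.0148); both calls ended with median scaling (-0.23 and -0.22).

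Rplp1, a protein of the ribosomal stalk, rose by 0.32 (adjusted p = 0.0306), a call that ended with quantile normalization (0.12), with normexp correction (0.23) and without cervical loop replicate 2, 3 or 5 or secretory replicate 1 or 5 (0.29 to 0.41 over all arrays left out). Rpl13a, another ribosomal protein gene, and Pop7, an RNase P subunit, differed by -0.29 and -0.29 (SE 0.15 and 0.13) and did not pass the threshold, though the stages did not overlap for Pop7. Both passed it downward with normexp correction (-0.34 and -0.30) and quantile normalization (-0.30 and -0.38), Rpl13a also without cervical loop replicate 5 (-0.39), and Pop7 also without cervical loop replicate 1 (-0.34) and with uneven and outlier spots kept (-0.32). Of the immune genes, B2m, the light chain of MHC class I, differed by -0.07 (SE 0.20) and did not pass it. Nlrp3, an inflammasome sensor, was well above background on 3 cervical loop arrays and no secretory array; its difference of -0.85 (adjusted p = 0.00227) became -0.16 under quantile normalization or 0.26 with normexp correction, neither past the threshold.

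**Figure D2:**
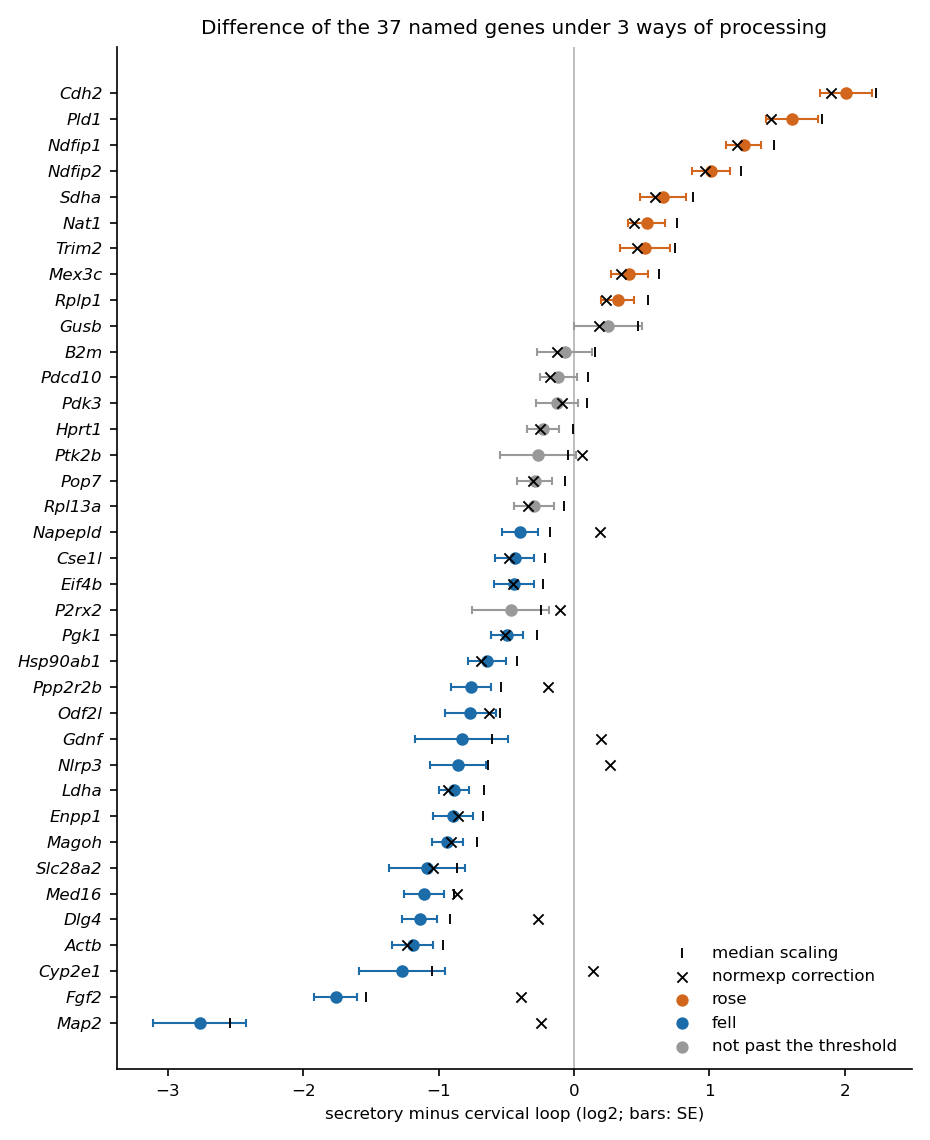
Difference between secretory stage and cervical loop (log2, x axis; bars are SE) for the 37 named genes, with the values under median scaling (ticks) and normexp correction (crosses). The 4 largest increases lie near 1 or above under each of the 3; for the dim genes Map2, Fgf2, Dlg4, Cyp2e1, Gdnf, Nlrp3, Ppp2r2b and Napepld the normexp value is nearer to 0 or of opposite sign.

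Across this set 4 of 9 increases and 13 of 19 decreases came without overlap between the stages. The 13 include Map2 and Cyp2e1, let into the test by the cervical loop, where they are high. Their lack of overlap adds nothing to their bounds. Over all features 39.0% did not overlap, 14.8% with the secretory arrays above and 24.3% with them below. Of the 13 textbook gene lists, 9 had tested members, 1 to 9 each, where 21.4% of all features rose and 36.7% fell. The 3 genes of the ubiquitin system and the 1 cadherin gene rose. The 3 neuronal and synaptic genes (Map2, Dlg4 and Gdnf), the 2 of the cytoskeleton, the 2 growth factors and the 2 of glycolysis fell. Among them Gdnf, Map2, Pgk1 and Trim2 lost their calls under the alternatives given above. Of 3 translation genes and of 3 signalling enzymes, 1 rose and 1 fell in each list. Of 9 genes in common use as references 2 rose (Rplp1 and Sdha), 3 fell (Actb, Ldha and Pgk1) and 4 did not pass the threshold. Of the 9 genes that rose, 7 had a maturation mean above their secretory mean, and of the 19 that fell, 3 had a maturation mean below it. With stages taken from the titles, which replaces 4 of the 5 secretory arrays, 12 named genes passed the threshold upward. Among these were Enpp1 (2.10), Gdnf (2.33), Ptk2b (2.28) and Hprt1 (1.51), all 4 with a negative difference by the tissue label. Ldha (0.87), Pgk1 (0.75), Cse1l (0.47), Nlrp3 (0.28) and Rplp1 (-0.19) changed sign there without passing it, and Med16 (-0.31), Odf2l (-0.42), Slc28a2 (-0.35) and Hsp90ab1 (-0.39) kept their sign but not the call. Actb, Cdh2, Dlg4, Fgf2, Magoh, Nat1, Ndfip1, Ndfip2, Pld1 and Sdha kept direction and call under each of the 20 alternatives.

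The arrays also varied more within the cervical loop: the SD of a feature among its arrays had a median of 0.31, against 0.25 in the secretory stage, and was the larger of the 2 for 66.0% of features and 78.4% of the named genes.

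The second question was how the transcripts without a gene name, which make up most of the array, divided between the stages. In total 6172 features rose and 10597 fell, and 2556 and 4440 of these changes were at least 2-fold by measured signal (24.2% of all features together). Among the 25002 features measured on all 10 arrays, 5742 rose and 8270 fell, 2209 and 2702 of them at least 2-fold. The balance moved with signal level: 9.93% of the dimmest 20% of features were higher and 51.7% lower, against 26.7% and 26.8% of the brightest 20%. A dim feature could enter the test through 1 stage alone, and the part of this filter in the balance was not tested. Among the 2098 features of the dimmest 20% that all 10 arrays measured, 9.96% were higher and 35.7% lower. Increases made up 36.8% of the calls, but 53.8% after median scaling, 46.0% after quantile normalization and 56.9% after normexp correction. The median difference of all features was -0.19; it was 0.03 with median scaling, 0.08 with normexp correction and -0.07 with quantile normalization, so directions are relative to the scaling used.

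**Figure D3:**
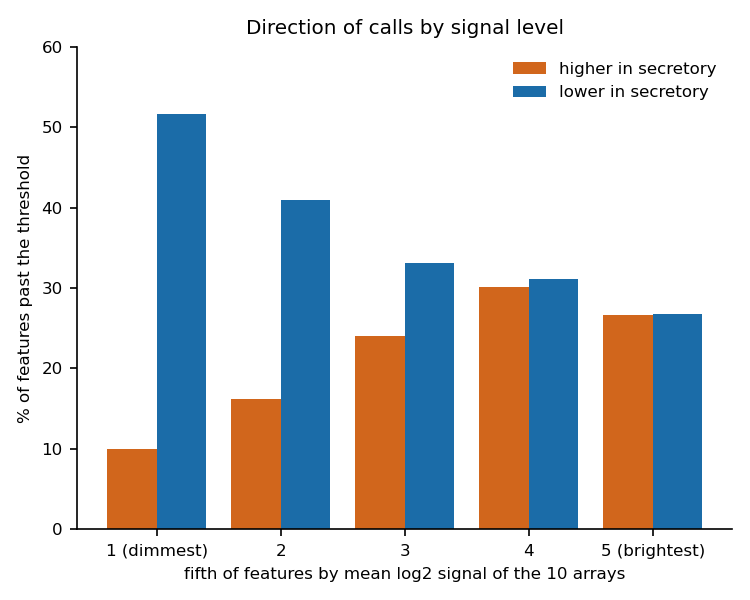
Percentage of features past the threshold in each direction (y axis) for 5 equal bins of the 28863 tested features ordered by mean log2 signal of the 10 arrays (x axis). Decreases fall from 51.7% in the dimmest bin to 26.8% in the brightest. Increases are 9.93% in the dimmest bin, 30.1% in bin 4 and 26.7% in the brightest. The dimmest bin includes features that entered through 1 stage alone.

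Detection was uneven as well. On all 5 cervical loop arrays and no secretory array, 642 features were well above background, and 22 showed the reverse. Of all spots, 72.6% to 78.9% were well above background on the cervical loop arrays and 67.4% to 72.1% on the secretory arrays; the part of this in the counts was not tested. Without cervical loop replicate 3 the latter count was 60, and it was 22 to 28 when any other cervical loop array was left out. The 642 had a median lower bound of 1.75-fold. By measured signal 598 of them passed the threshold and were at least 2-fold lower, but by their bound 214 were. All 22 in the other direction were at least 2-fold higher by their bound. Another 2226 features were measured on all 5 cervical loop and 1 to 4 secretory arrays, and 495 showed that pattern reversed.

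The largest increases measured on all 10 arrays were those of the unnamed probes ASRNV20023150, ASRNV20004162, ASRNV20029214 and ASRNV20000109, at 8.67, 8.20, 7.73 and 7.70 (SE 0.89, 0.94, 0.82 and 0.72). ASRNV20004162 read -0.74, -2.92, 3.64, -2.93 and -3.31 in cervical loop replicates 1 to 5 and 6.97, 6.98, 6.51, 7.15 and 7.11 in secretory replicates 1 to 5. ASRNV20023150 read -2.18, -3.79, 0.67, -5.01 and -5.42 in the cervical loop and 5.35, 5.82, 5.11, 5.65 and 5.71 in the secretory stage. In all 4 probes cervical loop replicate 3 stood highest in its stage, followed by replicate 1. Without replicate 3 the differences were 9.63, 9.42, 8.73 and 8.66.

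**Figure D4:**
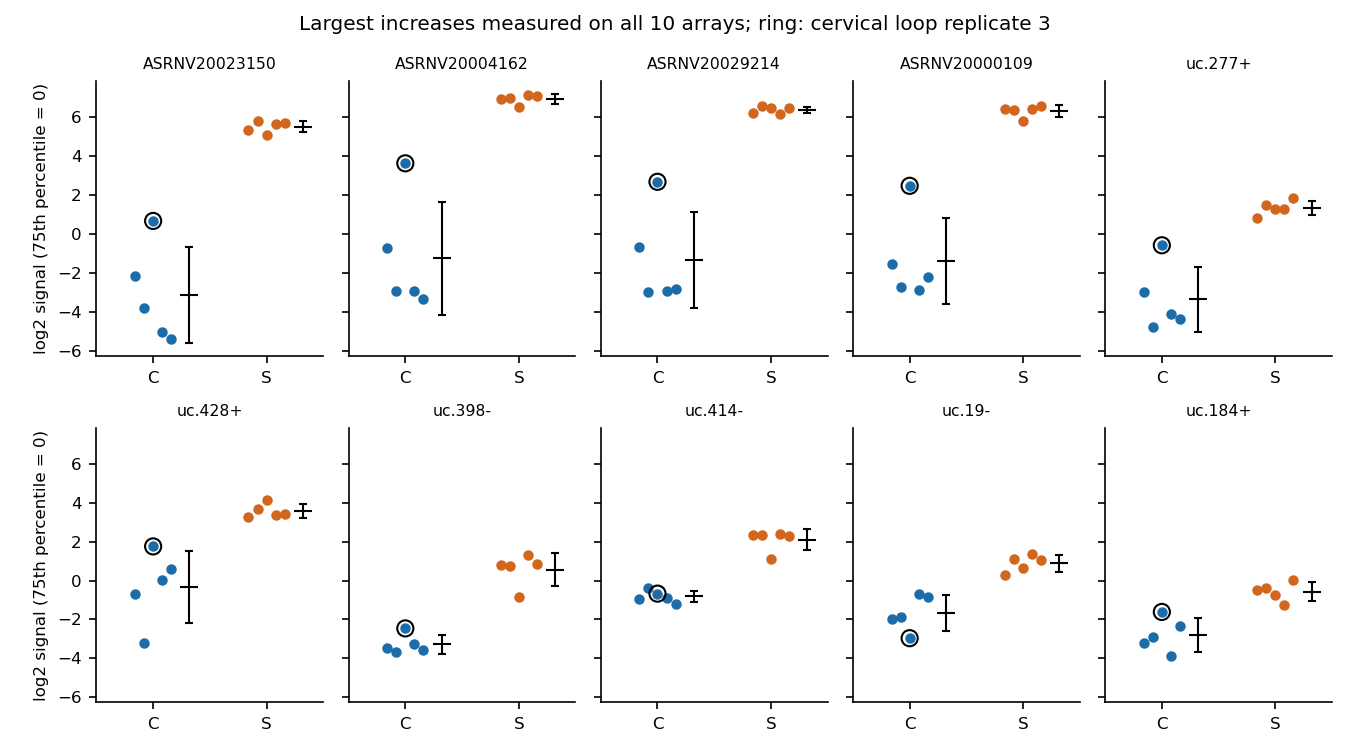
Log2 signal of each array (75th percentile of the array = 0) for the 4 unnamed probes and the 6 ultraconserved-element probes with the largest increases measured on all 10 arrays; marks show mean and SD of 5 arrays, and the ring is cervical loop replicate 3. The ringed array is the highest cervical loop array in 8 of the 10 panels; uc.414- and uc.19- are the others.

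In the other direction ASRNV20022220, ASRNV20001254, ASRNV20011878 and ASRNV20016548 fell by 5.65, 5.44, 5.26 and 5.09 (SE 0.40, 0.49, 0.34 and 0.25), with no overlap between stages. ASRNV20016548 read 1.79, 0.35, 0.46, 1.53 and 1.04 in the cervical loop and -3.86, -4.39, -4.09, -4.10 and -3.82 in the secretory stage. Of the probes without any secretory array above background, ASRNV20022343, ASRNV20017750 and ASRNV20025096 were at least 179-fold, 43.6-fold and 39.0-fold lower. Of those without any cervical loop array above background, ASRNV20029237, ASRNV20025372 and ASRNV20029917 had lower bounds of 15.8, 10.8 and 5.25 for their fold increase. Each of these 14 probes passed the threshold in the same direction under every scaling and background correction, and with stages from the titles 10 of the 14 did. Those given by a bound were let into the test by the stage where they are high, so their calls add nothing to the bounds. The exceptions there were ASRNV20023150 (-0.05) and the 3 with bounds on their increase, ASRNV20029237 (1.01), ASRNV20025372 (0.79) and ASRNV20029917 (0.61). With normexp correction the 3 with bounds on their decrease differed by -4.61, -2.71 and -2.37, and the 3 with bounds on their increase by 1.64, 1.33 and 0.97.

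Ultraconserved-element probes made up 390 of the features tested, of which 84 rose and 159 fell (62.3% together, against 58.1% of all features). The element probes had a median difference of -0.23 and all features -0.19. On the plus strand 36 of 193 probes were higher and 86 lower, on the minus strand 48 of 197 higher and 73 lower. The majority of lower calls did not hold with normexp correction (142 higher, 27 lower), quantile normalization (129 and 99) or median scaling (117 and 109).

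Of those measured on all 10 arrays, uc.277+, uc.428+, uc.398-, uc.414-, uc.19- and uc.184+ rose most, by 4.71, 3.90, 3.85, 2.92, 2.56 and 2.22. The probe uc.277+ read -2.99, -4.76, -0.58, -4.11 and -4.38 in the cervical loop and 0.83, 1.49, 1.29, 1.26 and 1.84 in the secretory stage, and uc.428+ read -0.70, -3.21, 1.76, 0.00 and 0.58 in the cervical loop and 3.26, 3.67, 4.16, 3.39 and 3.42 in the secretory stage. Cervical loop replicate 3 was highest in both, and without it they differed by 5.40 and 4.41. The probe uc.414- read -0.92, -0.40, -0.67, -0.90 and -1.20 in the cervical loop and 2.32, 2.35, 1.13, 2.40 and 2.28 in the secretory stage, so that its cervical loop arrays lay close together and secretory replicate 3 stood low in its own stage (difference 2.92, SE 0.22, adjusted p = 4.94e-08). With stages from the titles uc.277+, uc.428+, uc.398- and uc.414- did not pass the threshold (1.00, 1.03, 0.22 and 0.52).

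The largest decreases measured on all 10 arrays were those of uc.378-, uc.461+, uc.390+, uc.189-, uc.452- and uc.479+, at -2.70, -1.83, -1.52, -1.51, -1.47 and -1.36 (SE 0.32, 0.24, 0.27, 0.23, 0.23 and 0.28). With normexp correction they were -0.91, -0.50, -0.30, -0.44, -1.10 and -0.85, each still past the threshold. The probe uc.452- read 0.22, -0.98, -0.54, 0.24 and 0.29 in the cervical loop and -1.59, -1.24, -2.07, -1.72 and -1.53 in the secretory stage. No secretory array was well above background for 28 of the tested element probes that all 5 cervical loop arrays measured, and 1 showed the reverse. That one, uc.392-, read -4.26, -4.10, -4.63, -3.92 and -3.95 in the secretory stage and was at least 4.03-fold higher; its difference was 0.79 with normexp correction and, short of the threshold, 0.32 with stages from the titles. Among the 28, uc.195-, uc.220-, uc.247+ and uc.117- had the largest bounds, at least 10.1-fold, 4.78-fold, 4.44-fold and 4.36-fold lower; with normexp correction uc.247+ and uc.117- did not pass the threshold (-0.37 and -0.27), and uc.195- and uc.220- differed by -0.83 and -0.37.

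For 104 elements the probes of both strands were tested. In 25 of them both probes passed the threshold in the same direction (6 higher, 19 lower), in 13 in opposite directions, in 54 one probe passed and in 12 neither did. Of all 390 element probes tested, 84 rose and 159 fell, and the pair counts were not tested against these shares. The pairs include probes measured throughout in 1 stage alone. The widest opposite pairs were uc.398, uc.117, uc.414 and uc.251. For uc.117 the plus-strand probe read -2.99, -2.87, -2.99, -3.19 and -3.09 in the cervical loop and -1.62, -1.68, -1.92, -1.38 and -1.19 in the secretory stage, a rise of 1.47 (SE 0.15, adjusted p = 6.65e-07). Its minus-strand probe read -3.27, -3.50, -3.96, -3.35 and -3.30 in the cervical loop and -5.86, -5.78, -5.21, -6.46 and -5.82 in the secretory stage and was measured on none of the secretory arrays. The stages of the plus-strand probe did not overlap. The minus-strand probe was let into the test by the cervical loop, where it is high, so its fall is given by the bound above. In uc.398 the minus strand rose by 3.85 while the plus strand fell by 0.68, in uc.414 by 2.92 while it fell by 0.38, and in uc.251 by 0.74 while it fell by 1.54. With normexp correction the lower member of each of the 4 pairs lost its call (0.22, -0.27, -0.13 and 0.07 for uc.398+, uc.117-, uc.414+ and uc.251+). None of the 4 pairs was opposite there, and the part of the added offset in this was not tested. The call of uc.398+ also ended with quantile normalization (-0.20). That of uc.414+ also ended with quantile normalization (-0.28), with median scaling (-0.16) and without cervical loop replicate 2, 4 or 5 or secretory replicate 1, 4 or 5 (-0.49 to -0.30 over all arrays left out). With stages from the titles the rising member of the 4 pairs did not pass the threshold upward (0.22, 0.12, 0.52 and -0.14).

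**Figure D5:**
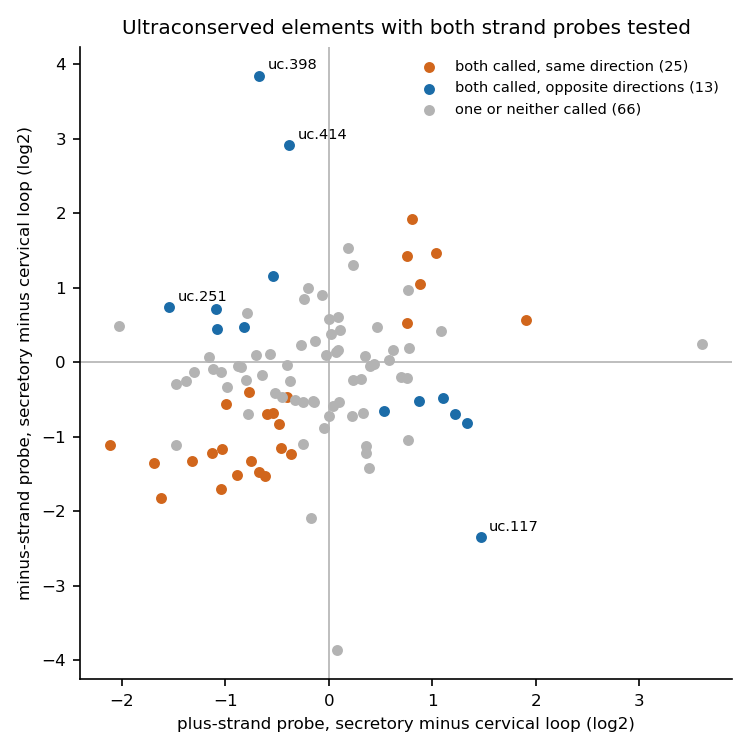
Difference between secretory stage and cervical loop (log2) of the minus-strand probe (y axis) against the plus-strand probe (x axis) for the 104 ultraconserved elements with both tested. The 13 elements with opposite calls include uc.398 and uc.414 at the top and uc.117 at the lower right; 25 have both calls in one direction.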

How the data were processed

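Total RNA was labelled with Cy3; per the submitters' processing notes, spots were quantified by Agilent Feature Extraction 11.0.1.1. The deposited scanner output, per the file headers, lists an intensity for each spot, background-subtracted but not scaled between arrays, with 0 or 1 flags in other columns. A series table deposited by the authors has log2 values of unstated normalization.

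Uneven and outlier spots were dropped, replicate spots of a probe averaged, and log2 signals taken minus the 75th percentile of their array. Measured means that 50% or more of a probe's spots were flagged well above background. Testing required this on the 5 arrays of 1 stage or more, and used the brightest probe of a gene; 352 features lacked a cervical loop or secretory value on some array, which the fit drops, and none of these is named. limma 3.58.1 (R 4.3.3; lmFit, eBayes) was fitted once to the 15 arrays, with Benjamini-Hochberg adjustment over 28863 features and a threshold of 0.05. Titles call the samples biological replicates, but nothing ties them to single rats, so p-values measure the spread between these samples. For a fold given as "at least", each array of the dim stage contributed its own signal or, if larger, the dimmest signal that any measured probe had there. Names came from a GRCr8 gene table through unversioned accessions, and promoter windows from RefSeq in GRCr8, whereas the array design follows rn4. Normexp used the median spot signal and added an offset of 50. The median processed signal of the 10 arrays was 30.0 to 76.2, so this offset compresses log2 differences of dim probes. The 75th percentile of the array was subtracted after it, so such differences are not drawn exactly to 0. Other settings tried were quantile and median scaling, the series table, other filters, spots kept, stages from titles, blocks by number and scan, 10 arrays in the fit, and leaving out each array.

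Every RefSeq gene was described, ordered by textbook role. Element and unnamed probes were the 6 and 4 largest changes per direction that passed the threshold without overlap on all 10 arrays, the largest bounds, and the 4 widest opposite strand pairs. Members, lists, roles, promoters and tests were chosen with earlier results of these data known. On data simulated for this comparison with 28471 features, the fit recovered 71 of 100 changes of size 1 and 95 of 100 of size 2 (log2), with 11 false calls. There all other features had equal stage means and normal noise, with no background floor. In the data 58.1% of features passed, so these rates do not carry over. Python 3.11.15, pandas 2.3.3, numpy 2.4.6 and matplotlib 3.10.9 made the tables and plots.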

Additional observations from a re-analysis of the deposited data

Results flagged for a closer look

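Among 146 groups of 5 arrays of the 73 features named, 12 had 1 array far from the other 4 (Dixon's test at the 5-sample critical value, gap to the nearest array over the whole range). Chance flags about 1 in 20 groups. In the cervical loop, replicate 4 of Pop7 was high at 3.36 (others 2.77 to 2.93), replicate 2 of Cse1l low at 3.09 (others up to 3.80), replicate 2 of uc.390+ low at -4.36 (-2.99 to -2.74), replicate 1 of uc.189- high at -1.96 (-2.86 to -2.64), and replicate 3 of ASRNV20000109 high at 2.48 (-2.86 to -1.53). In the secretory stage, replicate 3 was low for uc.398- at -0.86 (others 0.73 to 1.31), for uc.414- at 1.13 (2.28 to 2.40), for ASRNV20004162 at 6.51 (6.97 to 7.15) and for ASRNV20000109 at 5.79 (6.38 to 6.59). Secretory replicate 1 was low for Cyp2e1 at -6.96 (-6.21 to -5.96), for uc.461+ at -4.77 (-4.41 to -4.36) and for ASRNV20029237 at -2.99 (-2.15 to -1.88).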

How the results depend on the processing

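The scanner files' median signal replaced the mean in normexp correction, and the series table gave no values for RefSeq genes. Leaving out 1 array at a time gave 5751 to 6266 features higher and 9798 to 10509 lower, 2403 to 2641 and 4215 to 4781 at least 2-fold, 7 to 9 named genes higher and 18 to 20 lower, and 74 to 86 element probes higher and 136 to 159 lower. Features on cervical loop arrays alone numbered 643 to 793 and on secretory arrays alone 22 to 60, the latter without cervical loop replicate 3. With normexp correction 5969 features were lower, 1646 and 1256 were at least 2-fold higher and lower, and 142 and 27 element probes were higher and lower. The element counts were 129 and 99 with quantile normalization and 132 and 92 with the series table, and 255 were lower without a filter. The replicate block gave 6281 features higher and 10854 lower, 9 genes higher and 19 lower, and it changed no named gene's call; same-numbered arrays of the 2 stages had correlated deviations of -0.11 to 0.11, so the numbers were not taken to pair samples. With the scan as a random block 5737 and 9890 features differed. Causes of these shifts were not tested. In the dimmest 20% of features the SD among arrays had a median of 0.37 in the cervical loop and 0.40 in the secretory stage, against 0.31 and 0.20 in the brightest 20%.

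With stages from the titles, 4 of the 5 arrays used as secretory carry the maturation tissue label. Secretory replicate 1, whose title and tissue label agree, correlated with the other secretory arrays by tissue label at a median of 0.987. Then 3679 features were higher, 8 named genes lower, 31 element probes higher, and 372 and 9 features were measured on cervical loop or secretory arrays alone. Signs reversed there for Enpp1 (2.10), Ptk2b (2.28), Gdnf (2.33), Hprt1 (1.51), Ldha (0.87), Pgk1 (0.75), Pdcd10 (0.61), Cse1l (0.47), B2m (0.41), Nlrp3 (0.28), Pdk3 (0.19), Pop7 (0.0309), Rplp1 (-0.19), Gusb (-0.0776), ASRNV20023150 (-0.0521) and uc.251- (-0.14). With normexp correction they reversed for Nlrp3 (0.26), Cyp2e1 (0.14), Napepld (0.19), Ptk2b (0.0555), Gdnf (0.20), uc.398+ (0.22) and uc.251+ (0.0746), and with median scaling for Pdcd10 (0.11), Pdk3 (0.0931) and B2m (0.15). B2m ranged from -0.19 to 0.11 when 1 array was left out.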
